A study of Homo sapiens with 16 samples.

Results

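Tumour necrosis factor related apoptosis inducing ligand (TRAIL, gene TNFSF10) was followed together with 3 of its receptors and the genes that carry its death signal, over 45 hours of HER2 kinase inhibition in MCF-10A cells. The 8 genes were TNFSF10, TNFRSF10A, TNFRSF10B, TNFRSF10D, FAS, FADD, CFLAR and CASP8, taken by symbol from the intensity table. They were represented by 11 of its 20589 rows, or 8 of its 18190 symbols, and every probe was kept separate. TNFSF10 was selected because its increase between the first and the last time points was already known from these arrays, and the other genes were chosen as its pathway. The values of the 8 genes are therefore a description, and where calls of the fit over all probes are counted for them, the counts are a description too and no p is given. MCF-10A is a nontransformed human breast epithelial cell line. Cells were grown in Ham's F-12 medium with insulin, epidermal growth factor and hydrocortisone, and a HER2-specific tyrosine kinase inhibitor was added at 1 µM. RNA came from parallel cultures at intervals of 3 hours, giving 1 array at each of 16 time points from the untreated cells at 0 hours to 45 hours. No time point had a replicate and no untreated culture was followed beside the treated ones, so the inhibitor, the time in culture and the change of medium cannot be told apart.

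TRAIL is a membrane protein of the tumour necrosis factor family that is also released in soluble form. It binds the death receptors TNFRSF10A (DR4) and TNFRSF10B (DR5), whose cytoplasmic death domains recruit the adaptor FADD and the initiator caspase CASP8, and CFLAR (c-FLIP) competes with CASP8 for a place in that complex. TNFRSF10D (DcR2) binds TRAIL but has a truncated death domain and does not pass on the signal. FAS is the receptor of a related ligand and uses the same adaptor. Transcription of TNFSF10 is known to be raised by interferons and by FOXO factors, which are held in the cytoplasm by AKT, a kinase downstream of HER2 and the insulin receptor.

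The sequence before the annotated start of TNFSF10 is shown because this gene had the largest late difference of all tested probes. It is the RefSeq sequence of build GRCh38.p14 at chr3:172523431-172523680, minus strand, the 250 bases that end at the base before the start of the gene, written 5′ to 3′. The capitals mark matches to the interferon-stimulated element GAAANNGAA, both on the opposite strand and so read here as its reverse complement.

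TNFSF10: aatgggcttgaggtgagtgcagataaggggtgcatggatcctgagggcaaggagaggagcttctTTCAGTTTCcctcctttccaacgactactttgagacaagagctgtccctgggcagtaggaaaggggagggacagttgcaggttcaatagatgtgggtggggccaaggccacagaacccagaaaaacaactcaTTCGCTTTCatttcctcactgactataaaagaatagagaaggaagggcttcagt

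The matches began 186 and 54 bases before the gene start and did not overlap another searched motif. In a window from 250 bases before to 50 bases after the start, read on both strands, neither the FOXO core TGTTTAC nor the SP1 box GGGCGG was found. Of 35116 RefSeq promoter windows of this length, 8.11% held the interferon-stimulated element, 3.42% the FOXO core and 45% the SP1 box. FAS, FADD, CFLAR and CASP8 were matched as well. Over the 12 windows of these 5 genes, some of which overlap, the FOXO core was found 0 times, the interferon-stimulated element 4 times and the SP1 box 10 times. These are matches and not windows with a match, and a site in overlapping windows is counted in each. They cannot be set against the shares above. A match of letters is not a measured binding site, and its absence from a window says nothing about the factor.

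Illumina Ref8v2 bead arrays gave 10325 to 10889 rows above background per array, that is, with a detection p under 0.05 against the negative control beads. A probe was tested when it was above background on at least 3 of 16 arrays, which left 11957 probes. Intensities are given below as deposited, on a linear scale, and log2 values are background corrected and quantile normalized. The series was also divided into 4 windows of 4 arrays (0 to 9, 12 to 21, 24 to 33 and 36 to 45 hours), and each SD below is over 4 arrays of 1 window and so holds the change within it. Of 10 mammary epithelial markers, 7 were above background on all 16 arrays, KRT14 on 1 and TP63 on 10. LAMB3 is a combined row whose detection p never passed, although its window means of intensity were 1915 to 3446, so that p does not show its absence. Of 6 fibroblast markers 0 were above background on all arrays and 5 never were. Among leukocyte markers CD68 was above background on 16 arrays, CD14 on 12 and PTPRC on 5, while CD3D was never above it. The 6 leukocyte markers summed to 1944 in the first and 2373 in the last window, and their part in the late values was not tested. Of 4 endothelial markers CDH5 and VWF were never above background, and PECAM1 and KDR were above it on 15 arrays. The median intensity of 6719 probes that never passed the background was 182 to 192 on the arrays of 0 to 21 hours and 160.4 to 179 on those of 24 to 45 hours, so changes across that point are also given within the later arrays alone.

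TNFSF10 was near the background for the first 27 hours and high from 36 hours on. Its intensity was 244, 184, 187 and 176 at 0, 3, 6 and 9 hours and 205, 187, 190.1 and 209 at 12, 15, 18 and 21 hours. It was 159, 183, 228 and 309.7 at 24, 27, 30 and 33 hours, and 937, 853, 848 and 946 at 36, 39, 42 and 45 hours. All 4 last values lay above all 12 earlier ones. Since whole cultures were extracted, more cells with TRAIL RNA and more RNA per cell cannot be told apart. TRAIL RNA was above background on 6 arrays, those of 30 hours and later, and at 0 hours it narrowly missed the threshold with a detection p of 0.0508. On the log2 scale its window means were 5.60 ± 0.35 (SD, n = 4), 5.64 ± 0.13, 6.08 ± 0.78 and 9.56 ± 0.17 in order of time. The SD of the window of 24 to 33 hours covers 2 arrays not above background and 2 above it.

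**Figure D1:**
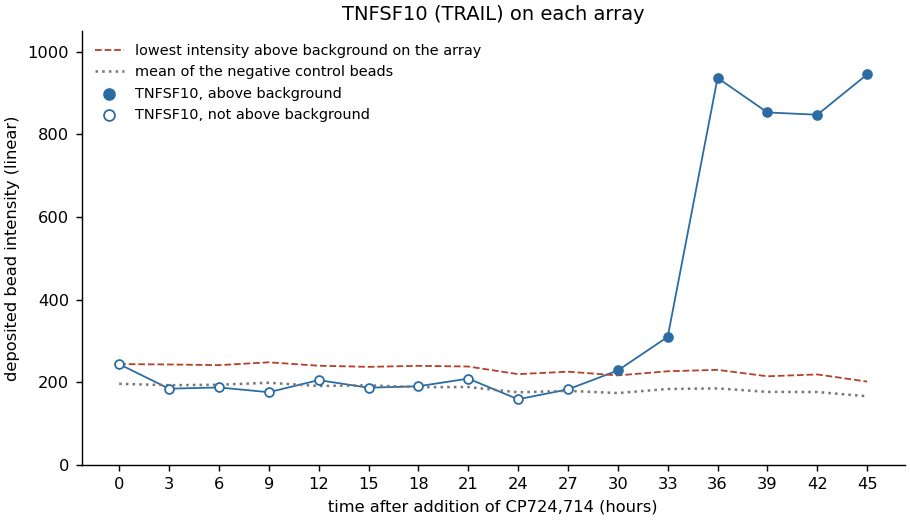
Deposited bead intensity of TNFSF10 (linear axis) on each of 16 arrays against hours after addition of the inhibitor, with filled points above and open points not above background, the lowest single-probe intensity above background on each array (dashed) and the mean of the negative control beads (dotted). The 4 arrays of 36 to 45 hours sit between 848 and 946, and those of 3 to 27 hours between 159 and 209.

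The last window exceeded the first by 3.96 on the log2 scale (SE 0.27), the highest value of all 11957 probes. Because the early level was not above background, the difference is better given as a bound, and under the background correction used here the last window of TNFSF10 was at least 10.7-fold higher than its first. The size depended on that correction, since the log2 difference was 3.25 with a larger offset of 50 and 2.32 with none, and the deposited intensities averaged 896 in the last and 198 in the first window. Most of this was in a single interval. The step from 27 to 30 hours was 0.66 log2 units, that from 30 to 33 hours 0.86 and that from 33 to 36 hours 2.37, which ranked 61, 18 and 3 among all tested probes for the same intervals. After 36 hours no step of TNFSF10 exceeded 0.38 log2 units. Between 33 and 36 hours 765 of the 11957 probes differed by at least 1.7-fold, against 41 to 55 in each of the 3 intervals before it, so the largest step of TRAIL fell in an interval of broad difference between the arrays. The 33 hour value had already left the earlier range, at 309.7 against at most 244 before 30 hours. When only the arrays of 24 to 45 hours were background corrected and normalized together, the last window exceeded that of 24 to 33 hours by 3.53 log2 units, against 3.49 (SE 0.27) with all arrays.

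After this correction TNFSF10 ranged at least 12.5-fold across the 16 arrays (159 to 946 in deposited intensity), the fourth widest range by its estimate among the tested probes, whose median range was 1.88-fold. None of the other 7 tested probes of the set ranged over more than 2.44-fold. Between windows, no other probe of the set differed by more than 0.83 log2 units.

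**Figure D2:**
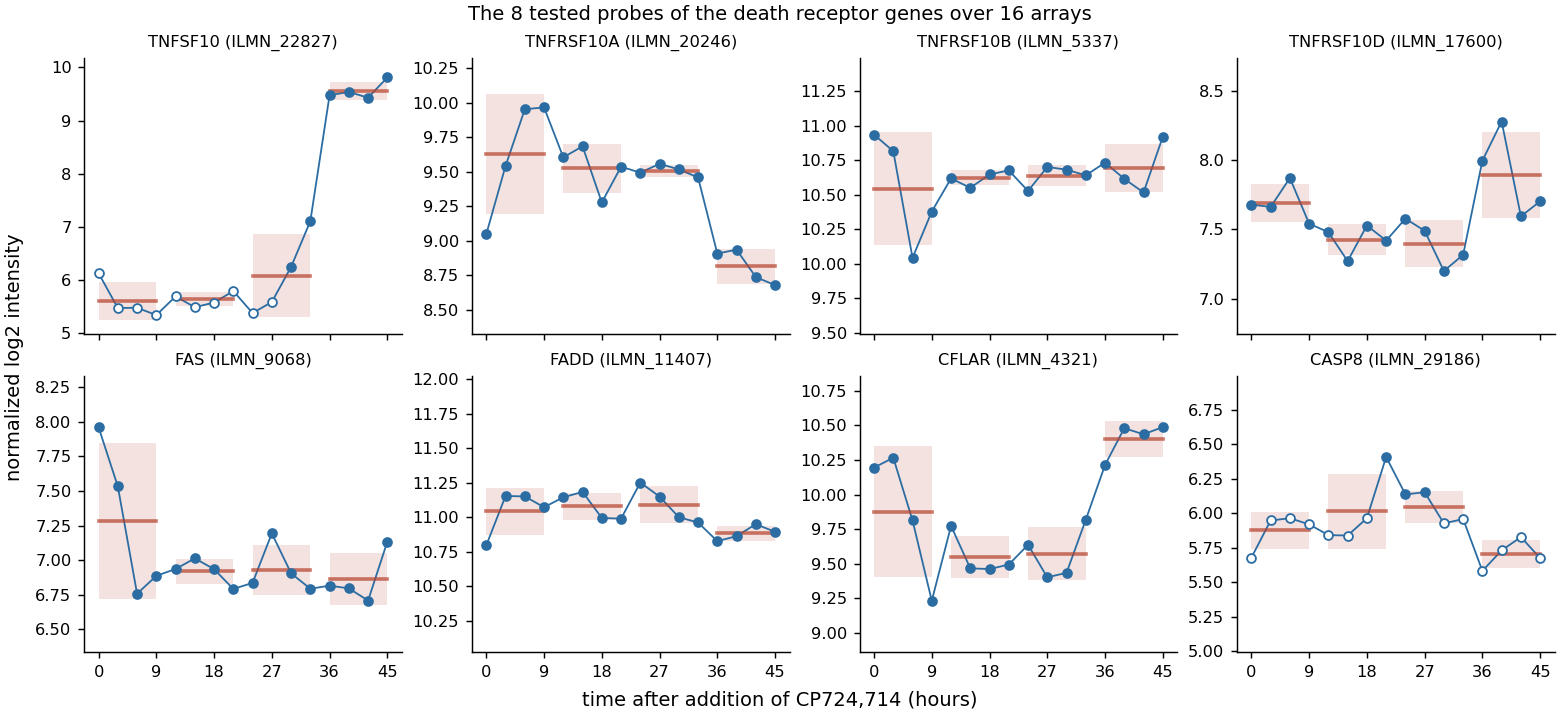
Normalized log2 intensity of the 8 tested probes against hours after addition of the inhibitor, 1 array per point, filled where above background. Red lines and bands are the mean and SD of each window of 4 arrays, and the TNFSF10 axis spans a wider range than the others, which all share 1 scale. TNFSF10 steps up between 33 and 36 hours, TNFRSF10A is lower and CFLAR higher from 36 hours on, and FADD stays within 1.37-fold.

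The death receptor TNFRSF10A was lower in the last window. Its intensity was 678, 854, 1155 and 1167 at 0, 3, 6 and 9 hours, and it lay between 838 and 972 at 12 to 21 hours and between 903 and 994 at 24 to 33 hours. At 36, 39, 42 and 45 hours it was 704, 627, 595 and 514. The 3 lowest values of the series were those of 39, 42 and 45 hours, and the untreated cells, at 678, lay below the 36 hour value. The normalized mean was 8.81 ± 0.13 (SD, n = 4) in the last window against 9.63 ± 0.43 in the first and 9.51 ± 0.04 at 24 to 33 hours. The differences were -0.81 log2 units (SE 0.16) from the first and -0.69 (SE 0.16) from the window of 24 to 33 hours, and the normalized values of the last window did not overlap either of them.

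TNFRSF10B, the other death receptor of TRAIL, had a lowest intensity of 1222 at 6 hours, a median of 1812 and a highest of 2024 at 27 hours. It had no late step, with a late difference of 0.06 log2 units (SE 0.15). Its largest step was -0.77 log2 units from 3 to 6 hours, and the window means lay between 10.54 ± 0.41 (SD, n = 4) and 10.70 ± 0.17. The last window differed from the first by 0.15 log2 units (SE 0.15), which became -0.01 with the 6 hour array left out and -0.16 with 0 and 3 hours set against 42 and 45 hours. This row combines more than 1 probe, and its detection p, up to 0.0368, is not on the scale of the single-probe rows.

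The decoy receptor TNFRSF10D was dim but above background on all arrays, from 313 at 30 hours to 456 at 36 hours with a median of 358. It stood out on 2 arrays, with 456 at 36 hours and 455 at 39 hours, and was back at 358 and 336 at 42 and 45 hours. The normalized means were 7.69 ± 0.14 (SD, n = 4), 7.42 ± 0.11, 7.40 ± 0.17 and 7.89 ± 0.31 in the order of the windows. The late difference was 0.50 log2 units (SE 0.15) over 24 to 33 hours, where the intensities of the windows overlapped, and 0.37 without the 39 hour array. Against 0 to 9 hours it was 0.21 (SE 0.15), and it was -0.02 when 0 and 3 hours were set against 42 and 45 hours. Its widest steps were 0.68 log2 units from 33 to 36 hours and -0.69 from 39 to 42 hours.

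FAS was highest in the untreated cells, at 416, and was 351 at 3 hours and 292 at 6 hours. From 6 hours on it lay between 265 and 317. The step of -0.78 log2 units from 3 to 6 hours was its largest. Its range was 2.39-fold over all arrays and 1.77-fold without the 0 hour array. The last window was 0.42 log2 units below the first (-0.42, SE 0.20), a difference of -0.20 without 0 hours. Between 24 to 33 and 36 to 45 hours, where TNFSF10 was highest, FAS differed by -0.07 (SE 0.20).

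The adaptor FADD was among the steadiest probes on the arrays. Its intensity ran from 1789 at 0 hours to 2746 at 24 hours with a median of 2256, and its normalized range of 1.37-fold was wider than that of only 6.30% of the tested probes. The last window was 0.16 log2 units below the first (-0.16, SE 0.09), and this turned to 0.08 when the arrays were scaled to a common median. That scaling moved the median difference of all tested probes from -0.02 to 0.11. The late difference was -0.21 (SE 0.09) and the windows did not overlap.

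CFLAR, the inhibitor that resembles CASP8 but lacks its protease activity, was lower in the middle of the series and highest at its end. It was 1269.9, 1281, 1066 and 768 at 0, 3, 6 and 9 hours, between 863 and 1062 at 12 to 21 hours and between 903 and 1104 at 24 to 33 hours. At 36, 39, 42 and 45 hours it was 1444, 1468, 1537 and 1416, above all 12 earlier values. The normalized means were 9.88 ± 0.47 (SD, n = 4), 9.55 ± 0.15, 9.57 ± 0.19 and 10.40 ± 0.13. The late difference was 0.83 log2 units (SE 0.17), with a range of 0.77 to 0.91 when 1 array was left out. Against 0 to 9 hours it was 0.53 (SE 0.17), where the normalized windows overlapped. Leaving out the 9 hour array gave 0.31, and setting 0 and 3 hours against 42 and 45 hours gave 0.23. The step up was spread over 3 intervals, with 0.38, 0.40 and 0.27 log2 units from 30 to 33, 33 to 36 and 36 to 39 hours.

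CASP8, the initiator caspase, was at the limit of detection. The brightest of its 4 probes was above background on 3 arrays, with 255 at 21 hours, 219 at 24 hours and 227 at 27 hours, and lay between 174 and 230.5 on the other 13. It was 188, 190.2, 199.6 and 174 at 36 to 45 hours, below all earlier values, but the background was lower on those arrays too and none of them was above it. The log2 difference of -0.34 (SE 0.13) from the preceding window was therefore given no fold. Probes ILMN_2110, ILMN_1386 and ILMN_29639 of CASP8 were never above background, with intensities of 140.3 to 211, and were not tested. The arrays therefore gave no usable level of CASP8 in the last window, where TNFSF10 was highest.

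Between 12 to 21 and 24 to 33 hours 7 of the 8 tested probes differed by at most 0.03 log2 units, and TNFSF10 by 0.44 (SE 0.27). In the fit of 4 windows with limma, 2 of 8 were called higher at 36 to 45 hours than at 0 to 9 hours (TNFSF10 and CFLAR), against 16.2% of all tested probes, and 1 lower (TNFRSF10A), against 15%. The call takes an adjusted p under 0.05 with Benjamini-Hochberg adjustment over all 11957 probes. For 12 to 21 against 0 to 9 hours 0 of 8 were called, against 15.1% higher and 14.4% lower over all probes. For 24 to 33 against 12 to 21 hours 0 of 8 were called, against 0% higher and 0.0251% lower. At an unadjusted limma p under 0.05 that comparison gave 0 of 8 and 585 of all probes. For 36 to 45 against 24 to 33 hours 3 were higher (TNFSF10, TNFRSF10D and CFLAR), against 19.3%, and 2 lower (TNFRSF10A and CASP8), against 18.7%. CASP8 passed the filter only through the arrays of 21, 24 and 27 hours, and TNFSF10 only through those of 30 hours and later. Their calls are therefore not independent of the filter. A spline of time with 3 degrees of freedom called 4 (TNFSF10, TNFRSF10A, FAS and CFLAR), against 54.6%. The windows did not overlap for 6 of 8 probes between 24 to 33 and 36 to 45 hours and for 0 in the comparison before it. They did not overlap for 1 (TNFRSF10D) between 0 to 9 and 12 to 21 hours, and for 2 (TNFSF10 and TNFRSF10A) between the first and the last window. The share of all tested probes without overlap was not counted, so these numbers have no background beside them. CASP8 is 1 of the 6 and was not above background on any array of the last window. These counts describe chosen genes in a series where 14.4% or more of the probes were called each way in 3 of the 4 comparisons, and nothing is read from them.

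**Figure D3:**
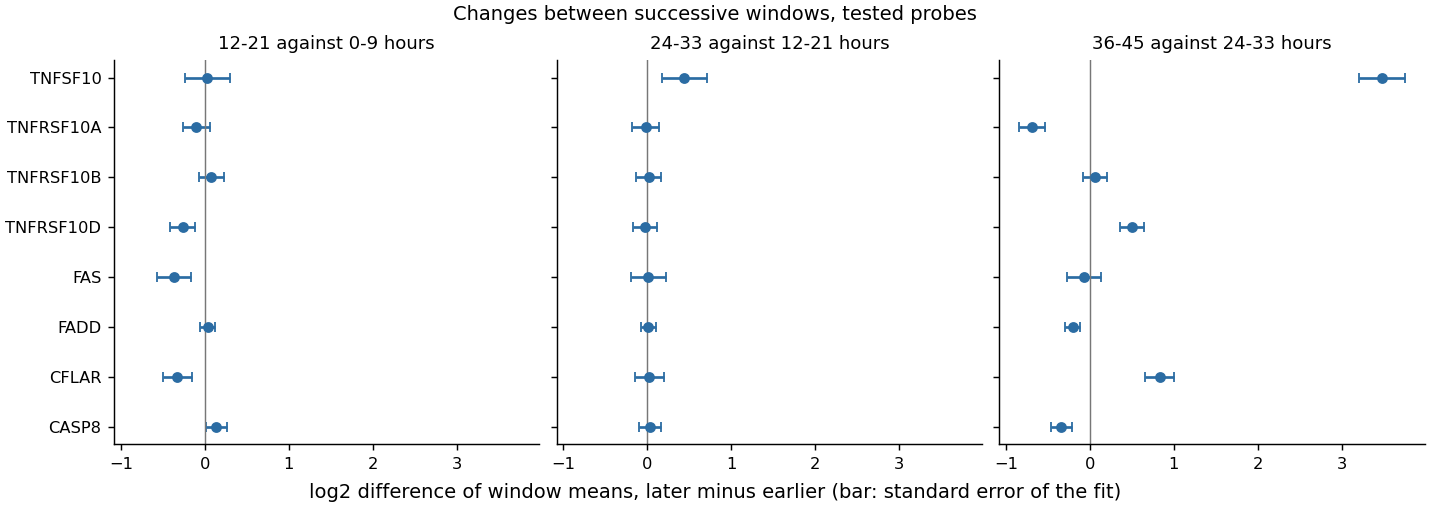
Log2 difference between successive windows of 4 arrays, later minus earlier, for the 8 tested probes, with bars for the standard error of the fit. TNFSF10 stands at 3.49 in the right panel, CFLAR at 0.83, TNFRSF10D at 0.50 and TNFRSF10A at -0.69, while values in the middle panel lie near 0 apart from TNFSF10 at 0.44.

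Whether the wider death signalling machinery differed over the series was examined in 66 other genes, grouped by role into 7 lists. All 66 were on the array and 57 were tested, each by its brightest probe. Between 0 to 9 and 36 to 45 hours 5 rose (8.77%, against 16.2% of all tested probes) and 11 fell (19.3%, against 15%), with the same adjusted p from limma over all probes. The median difference of the 57 was -0.14 log2 units against -0.02 for all tested probes. Scaling to a common median instead gave 12 higher and 6 lower, so the balance of directions depended on the scaling. Between 0 to 9 and 12 to 21 hours 7 rose (12.3%, against 15.1%) and 11 fell (19.3%, against 14.4%). From 12 to 21 to 24 to 33 hours 0 were called, with 3 at an unadjusted limma p under 0.05, and from 24 to 33 to 36 to 45 hours 10 rose (17.5%, against 19.3%) and 12 fell (21.1%, against 18.7%). The spline of time called 36 of the 57, against 54.6% of all tested probes. These shares are a description and were not compared by a test.

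Among the other ligands, FASLG, TNF and TNFSF14 were not tested because they were above background on too few arrays. TNFSF12 (TWEAK) was the 1 of 4 tested ligands that rose, from 8.32 ± 0.24 (SD, n = 4) to 9.21 ± 0.08, a log2 difference of 0.89 (SE 0.12, adjusted p = 2.196e-05). It had already reached 8.55 ± 0.10 at 24 to 33 hours, and its late difference was 0.66 (SE 0.12). LTA, LTB and TNFSF15 did not pass the test.

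Of 7 tested receptors and decoys 2 rose and 1 fell. TNFRSF21 (DR6), a death domain receptor, was bright and rose by 0.68 log2 units (SE 0.09, adjusted p = 1.342e-05). TNFRSF1A, the main receptor of tumour necrosis factor, differed by 0.25 (SE 0.09, adjusted p = 0.04899), a call lost in 14 of 21 alternatives, 12 of which left out 1 array (each but those of 3, 6, 18 and 45 hours). TNFRSF11B (osteoprotegerin), a secreted decoy that can bind TRAIL, had a difference of -0.81 (SE 0.17, adjusted p = 0.001435) and 3 of the 4 last arrays had it above background. Its call was lost when 0 and 3 hours were set against 42 and 45 hours. The late differences were 0.54 (SE 0.09) for TNFRSF21, 0.35 (SE 0.09) for TNFRSF1A and -0.09 (SE 0.17) for TNFRSF11B. TNFRSF6B, also of this list, had a larger late difference of -1.85 (SE 0.27), after 1.55 (SE 0.27) from 0 to 9 to 12 to 21 hours. Between the first and the last window it differed by -0.19 (SE 0.27) and did not pass, and its other tested probe gave -0.12. TNFRSF10C, the decoy of TRAIL without a death domain, was dim, with 8 arrays above background, and differed by 0.24 (SE 0.13, adjusted p = 0.177).

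Adaptors and initiators gave 1 higher and 2 lower of 11. TRAF2, an adaptor of tumour necrosis factor receptors that links them to survival signalling, had a difference of -0.70 (SE 0.19, adjusted p = 0.007672), and CASP2 one of -0.39 (SE 0.10, adjusted p = 0.007351), lost under median scaling and when 0 and 3 hours were set against 42 and 45 hours. FAF1, which binds FAS, rose by 0.47 (SE 0.11, adjusted p = 0.004259), and its other probe gave 0.45 without passing (adjusted p = 0.1415). The late differences were -1.10 (SE 0.19) for TRAF2, -0.16 (SE 0.10) for CASP2 and -0.19 (SE 0.11) for FAF1. FAF1 was already higher by 0.66 (SE 0.11) at 12 to 21 hours than at 0 to 9 hours. CASP10, the closest relative of CASP8, was above background on only 4 arrays, with window means of 5.75 to 6.19. Its difference of 0.00 (SE 0.15) therefore compares levels near the background and does not show a steady gene. RIPK1, above background on all 16 arrays, differed by -0.01 (SE 0.12).

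Executioner caspases and the mitochondrial arm gave 0 higher and 4 lower of 11. BAX, which permeabilizes the outer mitochondrial membrane, went from 9.88 ± 0.30 (SD, n = 4) to 8.71 ± 0.28, a difference of -1.17 (SE 0.15, adjusted p = 1.712e-05). CYCS, the cytochrome c released there, differed by -0.94 (SE 0.12, adjusted p = 1.544e-05). BAK1 differed by -0.57 (SE 0.16, adjusted p = 0.01036), which did not pass under median scaling. The late differences were -0.60 (SE 0.15) for BAX, -0.70 (SE 0.12) for CYCS and -0.39 (SE 0.16) for BAK1. CASP9, the initiator caspase of the mitochondrial arm, differed by 0.15 (SE 0.13) and did not pass. It is a combined row above background on 7 arrays, and its window means of 5.73 to 6.10 lay near the background.

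Inhibitors gave 0 higher and 2 lower of 9. TNFAIP3 (A20), a ubiquitin-editing inhibitor of NF-κB signalling, differed by -1.05 (SE 0.33, adjusted p = 0.02139), with 8.41 ± 0.96 (SD, n = 4) in the first window, and the call was lost without the 36 or the 42 hour array. PEA15, which holds a death effector domain like FADD, differed by -0.52 (SE 0.11, adjusted p = 0.001759). That call was lost under median scaling and when 0 and 3 hours were set against 42 and 45 hours. The late differences were 0.36 (SE 0.33) for TNFAIP3 and -0.06 (SE 0.11) for PEA15. Caspase substrates gave 0 higher and 2 lower of 7. LMNA, a nuclear lamin, differed by -0.66 (SE 0.08, adjusted p = 1.477e-05), and PARP1 by -0.24 (SE 0.07, adjusted p = 0.01819), a call lost under median scaling and without the 42 hour array. The late differences were -0.57 (SE 0.08) for LMNA and -0.62 (SE 0.07) for PARP1.

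Of 8 tested transcription factors with known action on TRAIL or its receptors 1 rose. FOXO1 went from 9.57 ± 0.49 (SD, n = 4) to 10.21 ± 0.07, a difference of 0.64 (SE 0.17, adjusted p = 0.008951), which was lost when 0 and 3 hours were set against 42 and 45 hours. It rose by 0.72 (SE 0.17, adjusted p = 0.003092) from 24 to 33 to 36 to 45 hours, where TNFSF10 differed by 3.49. IRF1, an interferon regulatory factor, rose by 0.65 (SE 0.15, adjusted p = 0.002765) between the last windows and differed by 0.26 (adjusted p = 0.2107) from the first. FOXO3 was on the array and was not tested. NFKB1, RELA and SP1 did not pass between the first and the last window.

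**Figure D4:**
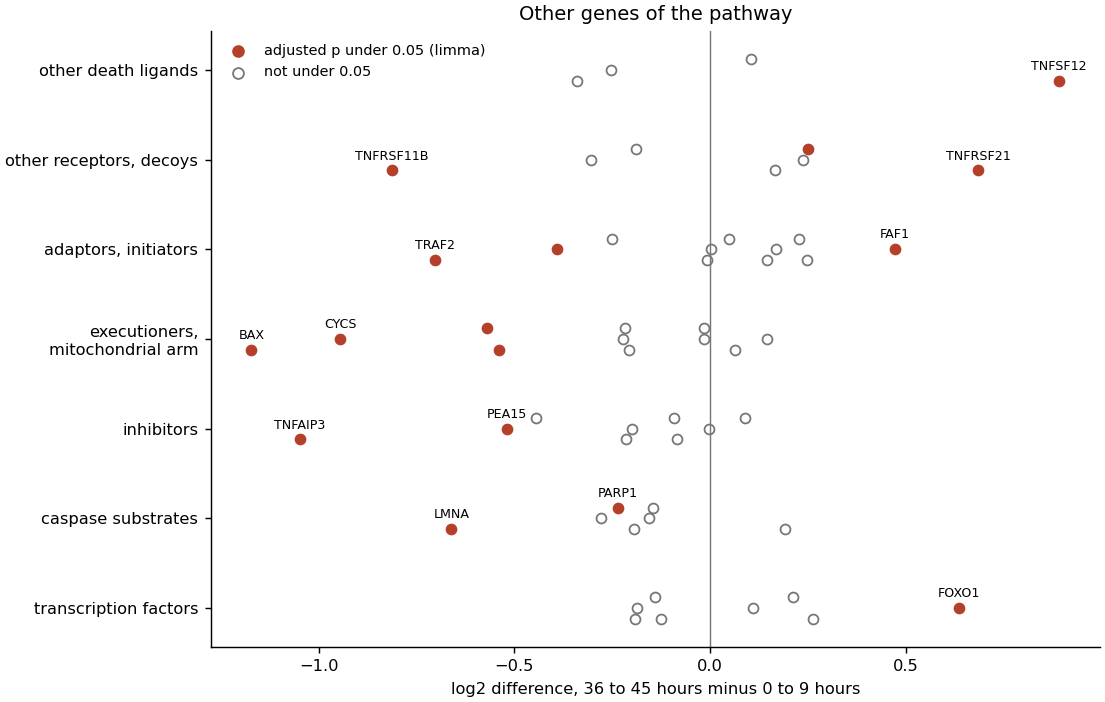
Log2 difference between 36 to 45 and 0 to 9 hours for the 57 tested genes of the 7 pathway lists, 1 point per gene at its brightest probe, filled where the adjusted p from limma was under 0.05 and named for up to 2 genes per list. BAX at -1.17 and TNFSF12 at 0.89 mark the ends of the range, and vertical offsets within a list only separate points.

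The probes whose course was most like that of TNFSF10 were sought by Pearson correlation of log2 values over the 16 arrays. The closest were MANBA (r = 0.987), CAMLG (0.985), DDEFL1, now named ASAP3 (0.985), PCMTD1 (0.982) and BNIPL (0.982). BNIPL had a mean log2 value of 6.87 at 24 to 33 hours and 9.27 at 36 to 45 hours, and the others had means about 1 log2 unit higher in the last window. The most opposite were GMPPB (r = -0.985), C2orf7, now PRADC1 (-0.982), and POP5 (-0.975). In all, 242 of the other 11956 tested probes had r over 0.9 and 100 had r under -0.9. These points are successive arrays of 1 series, and 10 of them hold TNFSF10 values not above background, so r says little about the first 27 hours.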

How the data were processed

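Total RNA of MCF-10A cells was labelled with biotin and hybridized by the authors to Illumina Ref8v2 arrays. The deposited values are bead intensities on a linear scale, not normalized between arrays, and detection p-values against the negative control beads, deposited beside them. The summary software and the build of the array annotation are not given in the sources used here. The study's methods state quantile normalization and a selection by a fold of at least 1.7.

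Of 20589 rows, 19092 had detection p-values that were whole multiples of 1 in 708 within 0.001 and stand for a single probe, and 1497 were combined. From the single-probe rows the negative control level was inferred (mean 166 to 199, SD 35.4 to 44.0). Using limma 3.58.1 (R 4.3.3), a normexp background correction with an offset of 16 was applied to the 16 arrays, followed by quantile normalization and a log2 transformation. The offset shrinks differences of dim probes. The number of arrays limits the precision.

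Tests covered probes that had a detection p under 0.05 on 3 or more arrays. Time dependence was assessed by a moderated F-test (limma) of a spline in time, and window differences in 1 limma fit with 12 residual degrees of freedom and an intensity trend. P-values were adjusted by Benjamini-Hochberg over all 11957 probes. Windows are not replicates of a condition, so p-values measure the spread between neighbouring time points. Where the dim group was not above background, a fold is a lower bound against the lowest single-probe level above background on each array, or the probe's own if higher.

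The members, the pathway lists and the tests were chosen with earlier results of these data known. Pathway genes named with full values were up to 2 per list, those with the largest differences among the called, and others named were chosen after their values were seen. Names and promoters came from RefSeq tables (GRCh38.p14). The 11 rows matched current symbols. Alternatives varied the background correction, offset, scaling, filter, spline, trend, the arrays compared and each array left out. Processing 24 to 45 hours alone was chosen after seeing the data. Some genes of the lists are counted but not reported here by name. The script was tested on simulated data. Figures were drawn with matplotlib 3.10.9.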

Additional observations from a re-analysis of the deposited data

Results flagged for a closer look

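In 32 windows of 4 arrays, 1 for each tested probe and window, the gap between the most extreme array and its nearest neighbour was divided by the range of the window and set against Dixon's critical value for 4 samples. Chance marks about 1 in 20 such windows, and 2 were marked. For CFLAR at 12 to 21 hours the ratio was 0.896, with the 12 hour array highest at a log2 value of 9.77 against 9.49 for the nearest (intensity 1062). For CASP8 at 0 to 9 hours it was 0.844, with the untreated cells lowest at 5.68 against 5.92 (intensity 207), all of them not above background.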

How the results depend on the processing

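The late level of TNFSF10 kept its direction under all alternatives that gave a value, and its size depended on the background correction. The difference between the last and the first window was 3.88 to 4.15 log2 units when 1 array was left out, 3.25 with an offset of 50 and 2.32 without background correction. From 24 to 33 to 36 to 45 hours it was 2.08 without background correction and 3.24 to 3.82 when 1 array was left out. The stricter filter, a detection p under 0.01 on at least 8 arrays, gave no value for TNFSF10, FAS and CASP8. TNFRSF10B changed sign in 2 of 23 alternatives and TNFRSF10D and FADD in 1 of 23 for the last against the first window. With median scaling 3206 probes were higher and 841 lower at 36 to 45 hours than at 0 to 9 hours, against 1932 and 1798, so 79.2% of the calls were higher in place of 51.8%. The pathway then had 12 genes higher and 6 lower, and 12 higher and 5 lower between 0 to 9 and 12 to 21 hours. A straight line in time called 1953 probes and 9 pathway genes, against 6533 and 36 for the spline. With only the 8 arrays compared, 1119 probes were lower and 3 pathway genes higher, against 1798 and 5. That fit has fewer arrays and takes its spread from the first and last windows alone. Which of these lowered the counts was not tested. Of 245 counts recomputed under the alternatives and taken as main results, 235 stayed within 1.5 times the main count. Other counts, between successive windows, were not among these, and 5 of them came out stronger and 8 weaker. With median scaling, 3013 probes were higher and 886 lower at 12 to 21 than at 0 to 9 hours, against 1807 and 1720. No paired analysis was possible because each group is a single array and the groups share only replicate number 1. No slide could be fitted as a block, since none is named. Dim probes, CASP8 above all, are limited by signal over background.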

Other observations

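For 10 pathway genes a probe other than the brightest was tested as well. For DFFA, the inhibitor of the caspase-activated nuclease, the log2 difference of the last from the first window was -0.28 (SE 0.18) on the brighter probe and -0.46 on the other (adjusted p = 0.02679 from limma).

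Several inhibitors of death had opposite differences early and late, so that they do not appear among the calls between the first and the last window. MCL1, a short-lived BCL2 relative, differed by -0.74 (SE 0.10, adjusted p = 4.437e-05 from limma) from 0 to 9 to 12 to 21 hours and rose by 0.46 (SE 0.10, adjusted p = 0.001424) from 24 to 33 to 36 to 45 hours. BCL2L1 gave -0.51 (SE 0.11, adjusted p = 0.00181) and 0.39 (SE 0.11, adjusted p = 0.008435), both lost under median scaling. BIRC5 (survivin), which is made mainly in dividing cells, went the other way, with 1.01 (SE 0.21, adjusted p = 0.001804) and -1.05 (SE 0.21, adjusted p = 0.0008269). MCL1 and BCL2L1 are combined rows.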
